A study of Mus musculus with 6 samples.

Results

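Basic helix-loop-helix (bHLH) transcription factors, including those with an added PAS domain (bHLH-PAS), were compared between ribosome-bound mRNA of the diencephalon and of cortical grey matter in the adult mouse. The genes were chosen by symbol alone: the HES and HEY repressors, the neurogenin, ASCL, ATOH, NHLH, OLIG and BHLH-named factors, E proteins, the hypoxia and dioxin sensors with their ARNT partners, the NPAS and SIM factors, the MYC, MAX and MXD network, the MITF, TFE and USF factors, and the TWIST, TAL, HAND and related factors. This gave 65 of the 23955 genes in the files. The rule itself uses no measured value. Bhlhb9 entered through its symbol only and does not encode a bHLH protein.

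The study asked how translated mRNA differs between astrocytes of the brain regions, and its title speaks of proliferating astrocytes of the diencephalon, their potential as neural stem cells, and SMAD4. All 6 libraries came from C57BL/6 mice of the genotype Slc1a3 +/- GFP+ Rpl22HA fl/fl, which join an inducible Cre under the Slc1a3 (GLAST) locus, a floxed Rpl22 that gains a haemagglutinin tag, and a CAG-driven EGFP reporter. Tamoxifen was given by gavage at 9 weeks of age, 3 times at intervals of 48 hours, and animals of both sexes were used at 3 months. The 3 diencephalic libraries were made from tissue lacking the area around the third ventricle, and the 3 cortical ones from grey matter stripped of meninges and white matter. Every library pooled 3 mice. The tag marks any cell in which Slc1a3 drove recombination, and a pool shows no difference between mice. The labels do not say whether the pools of the regions came from the same animals, so p-values measure the spread between these pools only.

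Many bHLH proteins bind DNA as dimers at the E-box, written CANNTG, where N is any base. E proteins (Tcf3, Tcf4, Tcf12) are the broadly expressed partners of tissue-specific members such as the OLIG factors, and ID proteins sequester E proteins. Several HES and HEY factors, among them HES1 and HES5, are repressors switched on by Notch and hold neural progenitors and glia in an undifferentiated or glial state. In the bHLH-PAS class, HIF1A and EPAS1 answer low oxygen, AHR answers dioxin-like ligands, NPAS2 and CLOCK drive the circadian clock, and ARNT or ARNT2 serves as dimer partner of many of them. MAX pairs with MYC to activate and with MXD proteins to repress.

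Libraries held 1733145 to 2334237 expected counts, so 3 counts, the limit that a count of 0 allows, equal 1.31 to 1.86 CPM (counts scaled to library size). These limits cover counting error only. CPM is used below to compare 1 gene between libraries, and TPM, which corrects for transcript length, to compare genes. Cortical replicate 3 was the least alike: its chi-square per degree of freedom was 6.81 and 5.91 against the other cortical libraries, which gave 2.59 between them. All 13 astrocyte markers were detected in every library, led by Slc1a2, Glul and Aldoc, and their summed level ran from 17255 to 19988 CPM in diencephalon and from 26440 to 33388 CPM in cortical grey matter. The 13 did not move as 1 set: 7 were lower in diencephalon, among them these leading genes, and 5 did not pass. Slc4a4 was higher there, at a mean of 1596 against 767 CPM. The ribosomal RNA precursor Rn45s held 3.52% to 4.48% of counts in diencephalic libraries and 1.77% to 2.23% in cortical ones, so it also moved with region. Markers of other cells were present as well and moved with region. Summed over 10 cortical excitatory neuron markers, the libraries held 981 to 1392 CPM in diencephalon against 5401 to 6384 CPM in cortex. Of these, 10 of 10 were lower in diencephalon, against 14.8% of all genes tested. The 11 subcortical neuron markers summed to 471 to 554 against 36.7 to 46.6 CPM. All 4 tested were higher, against 14.9% of all genes tested, and 7 were not tested. Some markers, such as Pmch and Neurod6, passed the filter on low counts through the region where they are high, so a difference was built into their passing. Both lists were chosen with earlier results of these data known. Among the subcortical markers Pmch, Hcrt, Avp and Pomc were at 0 in every cortical library. In diencephalon their summed counts were 69, 15, 1 and 2, so the cortical zeros of Avp and Pomc say little. Oligodendrocyte markers (10 genes) summed to 1742 to 2336 against 801 to 1025 CPM, oligodendrocyte progenitor markers (8 genes) to 129 to 148 against 195 to 217 CPM, and meningeal and fibroblast markers (12 genes) to 837 to 1280 against 4644 to 8469 CPM. Pan-neuronal markers (8 genes) summed to 1814 to 1913 against 2525 to 3542 CPM, with Snap25 the largest at a mean of 658 against 1543 CPM. This list went both ways: 3 of the 8 (Stmn2, Eno2 and Tubb3) were higher in diencephalon, 2 were lower and 3 did not pass. Ependymal and choroid plexus markers (9 genes) summed to 280 to 385 against 31.1 to 56.4 CPM, with Prlr the largest at a mean of 192 against 17.1 CPM. Of the 6 tested, 4 were higher in diencephalon, and 2 (Kl and Rsph1) did not pass. In such bulk material, fewer cells of a type and less RNA per cell cannot be told apart. The part of these other cells, and of Rn45s, in the differences described below was not tested.

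**Figure D1:**
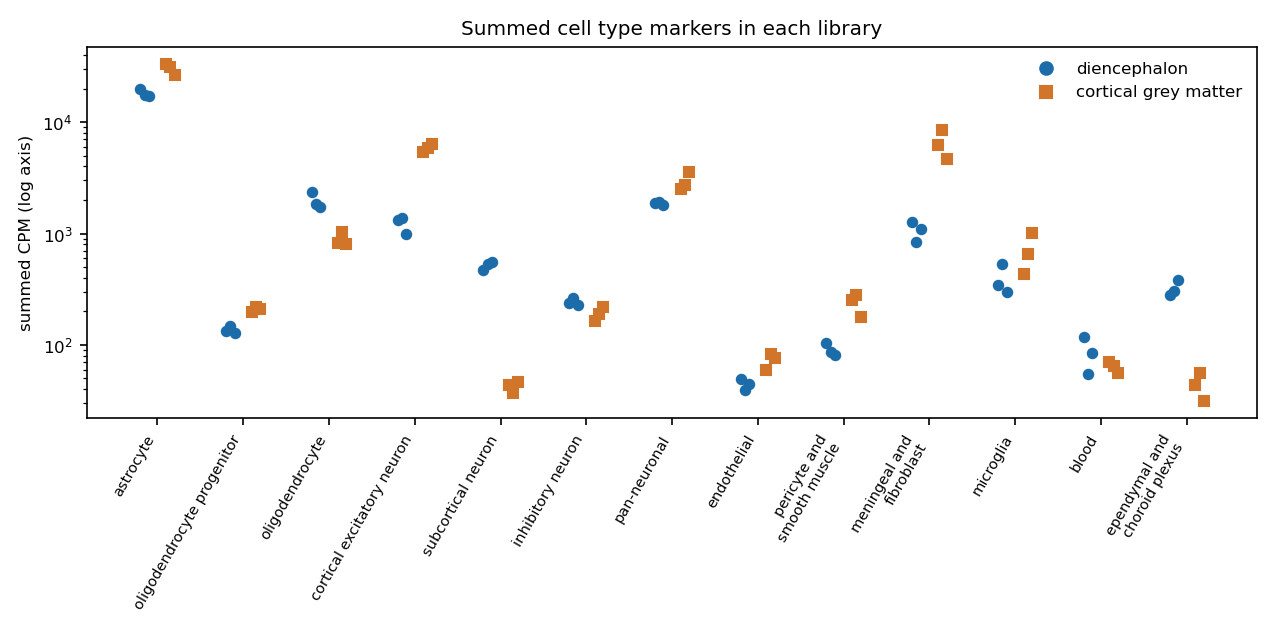
Summed CPM of each list of cell type markers (log axis) in the 3 diencephalic libraries (circles) and the 3 cortical libraries (squares). Astrocyte markers lead in all 6 libraries, and the sums of the regions overlap only for the microglia and blood lists.

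Of the 65 genes, 32 passed the filter on low counts. Among these, 10 differed between regions, or 31.2%, by edgeR's quasi-likelihood test at a Benjamini-Hochberg adjusted p under 0.05, against 29.6% of all 10568 genes tested. The share was thus near the background, and the number called is not a result about these factors. Nhlh2, Sim1, Arnt and Mitf were higher in diencephalon (background 14.9% of genes), and 6 genes were lower (background 14.8%), among them Bhlhe22, Tcf4, Npas2, Mxd1 and Mxi1. For 14 of the 32, no library overlapped between regions, against 42.6% of all genes tested. The median log2 difference, diencephalon minus cortical grey matter, was -0.11 over the 32 and 0.01 over all genes tested, with 12 values above and 20 below 0. Nhlh2, Sim1 and Bhlhe22 passed the filter through the region in which they were high, so a difference was built into their passing. Leaving out single libraries changed the number higher in diencephalon from 4 to 2 without diencephalon replicate 2, cortical replicate 2 or cortical replicate 3.

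**Figure D2:**
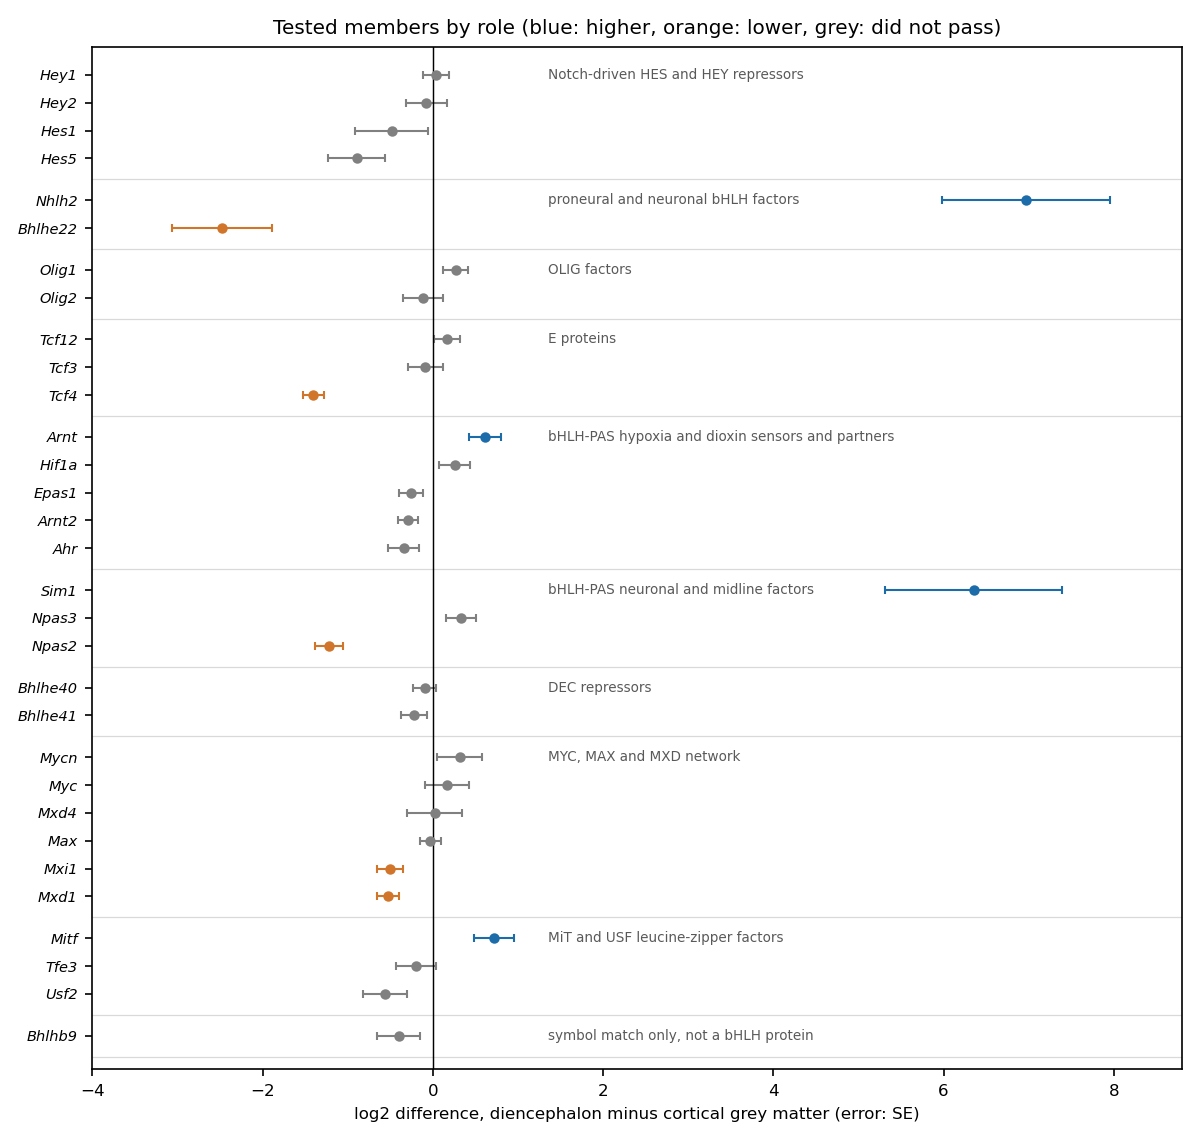
Log2 difference, diencephalon minus cortical grey matter, of 31 of the 32 tested genes, grouped by role, with the standard error as bar; blue passed the test as higher, orange as lower, and grey did not pass. Tcf4, Npas2 and Bhlhe22 lie below -1, Nhlh2 and Sim1 above 6, and most other points lie near 0. The fitted values of Nhlh2 and Sim1 depend on how empty cortical libraries are treated and are no measure of size.

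The upstream windows of 4 of the 10 genes are shown because E-boxes are sites that many, not all, members of the family bind. They are those of Nhlh2 and Sim1, with 0 and 1 cortical counts, of Npas2, higher in cortex, and of Arnt, the shared bHLH-PAS partner. Each is the 250 bases before the gene's start in the RefSeq annotation of GRCm38.p6, on the plus strand, with CANNTG in capitals. The 4 genes were picked after their values were seen, and the expression files use another build, mm9.
Nhlh2, chr3:102009895-102010144: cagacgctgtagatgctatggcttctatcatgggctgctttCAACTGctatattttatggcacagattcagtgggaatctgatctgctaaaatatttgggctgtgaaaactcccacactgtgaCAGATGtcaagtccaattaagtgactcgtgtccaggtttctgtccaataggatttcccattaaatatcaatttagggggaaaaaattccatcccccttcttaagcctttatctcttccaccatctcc
Sim1, chr10:50895401-50895650: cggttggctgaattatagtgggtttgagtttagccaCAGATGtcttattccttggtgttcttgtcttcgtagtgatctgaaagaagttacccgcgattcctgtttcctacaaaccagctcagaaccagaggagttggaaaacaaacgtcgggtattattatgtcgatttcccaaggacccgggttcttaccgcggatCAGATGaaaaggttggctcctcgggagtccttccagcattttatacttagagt
Npas2, chr1:39194022-39194271: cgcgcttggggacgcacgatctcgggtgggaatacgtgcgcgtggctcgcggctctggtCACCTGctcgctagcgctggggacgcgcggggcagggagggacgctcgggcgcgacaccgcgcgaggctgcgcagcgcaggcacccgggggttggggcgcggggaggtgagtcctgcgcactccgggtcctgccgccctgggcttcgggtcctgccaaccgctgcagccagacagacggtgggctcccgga
Arnt, chr3:95434140-95434389: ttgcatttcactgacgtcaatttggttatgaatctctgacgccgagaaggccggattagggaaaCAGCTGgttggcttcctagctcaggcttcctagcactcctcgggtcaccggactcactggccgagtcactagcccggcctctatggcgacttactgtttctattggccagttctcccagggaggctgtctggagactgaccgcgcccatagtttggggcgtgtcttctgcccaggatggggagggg
Nhlh2 held CAACTG 209 bases and CAGATG 127 bases before the start, and Sim1 held CAGATG at 214 and at 53 bases. Npas2 held CACCTG at 191 bases, and Arnt held CAGCTG at 186 bases. CANNTG reads the same on both strands, and CACGTG and CAGCTG are forms of it. Of 32851 windows of this length, 66.2% held CANNTG, so a match is common. Of the 65 genes, 48 matched the table by symbol, with 60 windows, of which 37 held CANNTG (61.7%). CACGTG, the form bound by MYC, MXD, USF and TFE proteins, was in 8.33% of these windows and in 6.02% of all, and CAGCTG in 15% and 13%. A match is a stretch of letters and shows no binding. Sites other than CANNTG were neither searched nor marked.

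Tcf4 was the E protein that differed, at 380, 409 and 388 CPM in diencephalic replicates 1 to 3 and 974, 1006 and 1134 CPM in cortical replicates 1 to 3. Each cortical library was more than 2-fold above each diencephalic library. The fall was 2.65-fold (log2 difference -1.40 ± 0.13 SE, n = 3 and 3, edgeR adjusted p = 2.36e-08) and passed under all 15 alternatives run. Tcf12 was at 131, 114 and 121 CPM against 104, 133 and 89.4 CPM, with overlap (log2 difference 0.16 ± 0.15, adjusted p = 0.442). Tcf3 was at 32.7, 44.3 and 34.5 against 30.5, 46.3 and 42.2 CPM, also overlapping (log2 difference -0.09 ± 0.21, adjusted p = 0.789). The make-up of the E protein pool therefore differed between regions: in TPM, Tcf4 made up 57.5%, 59.2% and 58.9% of the summed Tcf3, Tcf4 and Tcf12 in diencephalon and 80.4%, 75.9% and 82.6% in cortical grey matter. Summed E protein mRNA averaged 344 TPM in diencephalon and 583 TPM in cortex. Tcf4 is also transcribed in cortical neurons, whose summed excitatory markers were 4.80-fold higher in cortex.

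Among the 16 proneural and neuronal factors, Nhlh2, a factor of hypothalamic and other neuroendocrine neurons, had 13, 18 and 16 counts in the diencephalic libraries and 0 in each cortical library. All 3 diencephalic libraries thus carried it, and no cortical one did. With the cortical group set to a floor of 3 counts in total, it was 15.2-fold higher in diencephalon (edgeR adjusted p = 1.7e-05). That fold takes the diencephalic counts as exact and is no lower bound. Nhlh2 passed the filter through diencephalon, so a difference was built into its passing. Bhlhe22, known from cortical projection neurons, showed the opposite pattern, with 6, 4 and 0 counts in diencephalon and 33, 11 and 13 in cortex, the log2 difference being -2.48 ± 0.59 (edgeR adjusted p = 0.00283). Its libraries did not overlap, but on log2(TPM + 0.1) the call was lost (limma adjusted p = 0.103, range over alternatives 5.37e-05 to 0.103). Nhlh2 and Bhlhe22 moved in the same directions as the neuron marker lists of the corresponding region.

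Atoh8 stayed under the filter with 10, 10 and 5 counts against 11, 16 and 5. Bhlha15, a factor of secretory cells, had 7, 15 and 5 counts against 0, 0 and 2, a ratio of 13.1 (95% exact counting interval 3.30 to 114). It passed when no filter was applied (edgeR adjusted p = 0.00149). Summed counts in diencephalon and cortex were 4 and 3 for Ascl2, 0 and 3 for Ascl3, 2 and 2 for Ascl4, 5 and 3 for Neurog2, and 2 and 7 for Nhlh1. Ascl5, Atoh1, Atoh7, Bhlhe23, Neurog1 and Neurog3 had no count in any library. For Ascl2, Ascl3, Ascl4, Neurog2 and Nhlh1, differences of such sizes were not detectable at this depth.

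**Figure D3:**
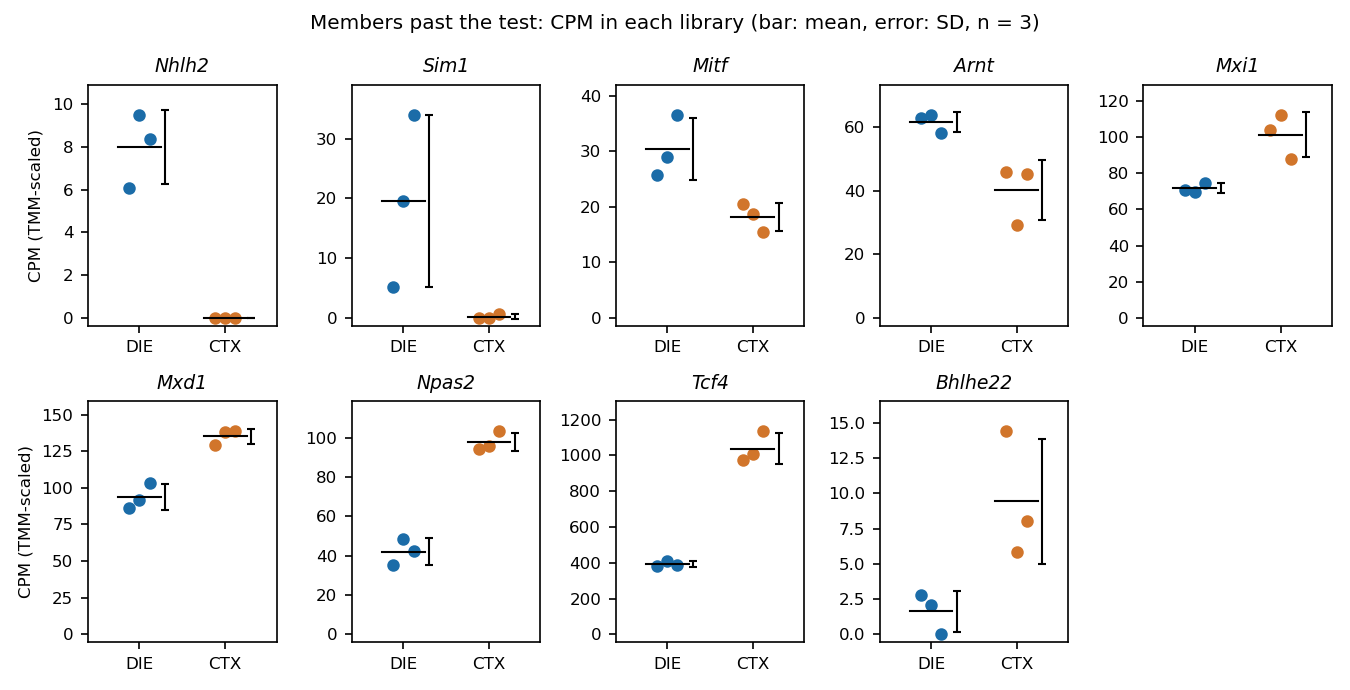
TMM-scaled CPM of 9 of the 10 genes past the test in each diencephalic (DIE, blue) and cortical (CTX, orange) library; the horizontal bar is the mean and the error bar the SD of 3 libraries, and each panel has its own axis. The points of the regions do not overlap in any panel, and Sim1 and Bhlhe22 spread widely within the region where they are high.

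In the HES and HEY group, not all of which answer to Notch, 4 of 8 genes were tested and none passed by edgeR's quasi-likelihood test. Hes5 had an unadjusted p under 0.05, and DESeq2 called none of the 4. Hey1, the most abundant, was nearly level at 75.3, 71.7 and 73.7 CPM in diencephalon and 72.9, 79.3 and 62.1 CPM in cortex (log2 difference 0.04 ± 0.15, edgeR adjusted p = 0.877; without cortical replicate 3 the sign turned to -0.05). Hes5, the Notch target of radial glia and astrocytes, was at 6.08, 6.33 and 12.5 CPM against 16.6, 17 and 12.4 CPM. Only diencephalic replicate 3 reached the cortical range. Its log2 difference was -0.90 ± 0.34 with an adjusted p of 0.0506, just outside the threshold, and it passed under 5 of 14 alternatives (adjusted p range 0.0181 to 0.213), among them without diencephalon replicate 3 and without cortical replicate 3 (0.0181 and 0.0252).

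Hey2 was at 18.2, 19.0 and 26.7 against 23.6, 21.8 and 21.7 CPM, with overlap (adjusted p = 0.841). Hes1, the classical Notch target, averaged 5.66 ± 2.58 (SD) against 7.72 ± 2.02 CPM, a difference within its spread (adjusted p = 0.425). Hes6 had 1 and 3 summed counts and Hes7 0 and 1, and Hes2 and Hes3 had none. Heyl, which the symbol rule left out, rose in diencephalon, from 31.5 ± 9.01 to 109 ± 10.7 CPM (log2 difference 1.78 ± 0.19, edgeR adjusted p = 2.65e-07). As a share of the summed TPM of Hes1, Hes5, Hey1, Hey2 and Heyl it stood at 29.6%, 32.3% and 29.1% in diencephalon and 11.4%, 6.5% and 12.6% in cortex, without overlap.

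The OLIG factors, which specify oligodendrocyte lineage cells and mark some astrocytes, did not pass. Olig1 was at 91.7, 86.5 and 85.2 CPM in diencephalon and 78.5, 72.4 and 67.1 CPM in cortex. The libraries did not overlap, yet the difference was small (log2 difference 0.27 ± 0.15, edgeR adjusted p = 0.181). On TPM scales, where the median of all genes shifted by 0.22, it passed (limma adjusted p = 0.0220 and 0.0227). Olig2 was at 23.9, 30.1 and 18.3 against 23.6, 28.7 and 26.1 CPM, overlapping (adjusted p = 0.751), and Olig3 had no count. Olig1 exceeded Olig2 in every library, making up 76.5% to 84.1% of their summed TPM in diencephalon and 74.1% to 79.1% in cortex. The summed oligodendrocyte and oligodendrocyte progenitor markers moved in opposite directions beside these values. The progenitor list went both ways: of 7 tested, 3 were lower in diencephalon, Lhfpl3 was higher and 3 did not pass.

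Among the hypoxia and dioxin sensors and their partners all 5 genes were tested and only Arnt passed (20% called, against 29.6% of all genes). Arnt was at 62.7, 63.8 and 58.0 CPM in diencephalon and 45.8, 29.3 and 45.3 CPM in cortex. All diencephalic libraries lay above all cortical ones, with cortical replicate 2 lowest. The rise was 1.53-fold (log2 difference 0.61 ± 0.19, edgeR adjusted p = 0.0179). The call was lost without diencephalon replicate 2 and without cortical replicate 2 (adjusted p = 0.0619 and 0.126) and with DESeq2 (0.0582), over a range of 0.00795 to 0.126.

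Arnt2, the ARNT paralogue of neural tissue, leaned the other way, at 266, 255 and 281 CPM against 347, 309 and 328 CPM. Its libraries did not overlap, and the adjusted p was 0.0676 (log2 difference -0.29 ± 0.12). It passed without cortical replicate 3 (0.0462). In TPM, Arnt made up 24.9%, 26.2% and 22.6% of the summed Arnt and Arnt2 in diencephalon and 15.7%, 11.9% and 16.4% in cortex. Arnt2 was thus the more abundant partner in every library of either region.

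Epas1 (HIF2A), an oxygen-regulated factor also strong in vessels, was at 579, 428 and 478 against 612, 656 and 510 CPM, with overlap (log2 difference -0.26 ± 0.14, edgeR adjusted p = 0.168). It passed without cortical replicate 3 (adjusted p = 0.0200), the exception among its alternatives. Endothelial markers summed to 39.5 to 49.1 CPM in diencephalon and 59.8 to 82.5 CPM in cortex. Of the 4 tested endothelial markers, only Cdh5 was lower in diencephalon (mean 5.33 against 31.9 CPM), and 3 did not pass. Hif1a was at 113, 84.9 and 86.2 against 97.3, 82.5 and 56.5 CPM (log2 difference 0.26 ± 0.18, adjusted p = 0.308). Per length, Epas1 exceeded Hif1a in every library, at 81.7% to 83.1% of their sum in diencephalon and 84.8% to 88.9% in cortex. Ahr averaged 54.2 ± 8.84 against 69.0 ± 12.3 CPM and did not pass (adjusted p = 0.163).

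In the genes around these sensors, Egln1, the main oxygen-sensing HIF hydroxylase, was the only 1 of 7 HIF regulators past the test, at 93.2 ± 14.6 against 124 ± 3.83 CPM (edgeR adjusted p = 0.0327). That was 14.3% of these regulators, against 29.6% of all genes. None passed without diencephalon replicate 2 or 3 or cortical replicate 1 or 2, with DESeq2 or on TPM scales, and 2 were lower without diencephalon replicate 1. Of 22 tested HIF target genes, 3 were higher and 3 lower in diencephalon (27.3% called, against 29.6% of all genes). The number higher dropped to 1 without diencephalon replicate 1, diencephalon replicate 2 or cortical replicate 1 and with DESeq2, and was 5 on both TPM scales. The smallest adjusted p belonged to Ldha, lactate dehydrogenase A, at 119 ± 6.16 against 200 ± 8.34 CPM (8.09e-05). Vegfa, the vascular growth factor, was at 57.2 ± 4.08 against 93.5 ± 10.3 CPM (0.00127). Pfkfb3, a driver of glycolysis, ran the other way at 64.6 ± 9.91 against 36.1 ± 3.37 CPM (0.0013), as did P4ha2, a collagen hydroxylase, at 16.7 ± 4.03 against 8.73 ± 1.91 CPM (0.0312). The other 2, Pdk1 (lower) and Ndrg1 (higher), were named after their values were seen. Of 3 tested AHR targets, Cyp1b1 fell, from 28.5 ± 10.4 CPM in cortex to 10.3 ± 2.84 CPM (0.000967), or 33.3% called against 29.6% of all genes. Cyp1b1 is also strong in the pericyte and fibroblast lineages, whose summed markers were 2.62-fold and 6.00-fold higher in cortex. Of the 9 pericyte and smooth muscle markers, 5 were not tested, 3 were lower in diencephalon (Vtn, Myh11 and Cspg4) and Pdgfrb did not pass.

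**Figure D4:**
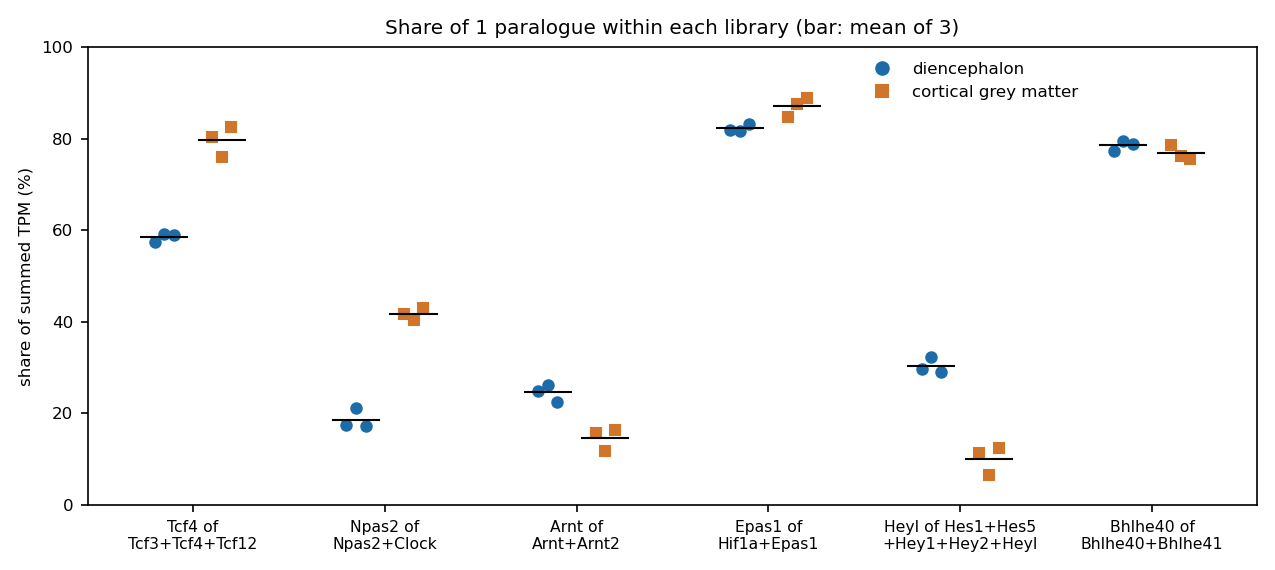
Share, in percent of summed TPM, of a named paralogue within its group in each library; circles are diencephalon, squares cortical grey matter, and bars the mean of 3 libraries. The shares of Tcf4, Npas2, Arnt, Epas1 and Heyl do not overlap between regions, while that of Bhlhe40 does.

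Npas2, the forebrain paralogue of CLOCK, was at 35.1, 48.5 and 42.3 CPM in diencephalon and 94.2, 95.8 and 103 CPM in cortex. The cortical libraries lay close together and far above the others. The fall was 2.33-fold (log2 difference -1.22 ± 0.17, edgeR adjusted p = 6.24e-06) and passed under all 15 alternatives. Clock itself rose modestly, from 327 ± 11.1 to 439 ± 46.1 CPM (log2 difference 0.43 ± 0.12, adjusted p = 0.0114). Its call was not followed through the alternatives. Npas2 accordingly made up 17.5%, 21.2% and 17.2% of the summed TPM of both in diencephalon and 41.6%, 40.4% and 43.1% in cortex.

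Npas3, expressed in astrocytes and neural progenitors, was at 67.8, 88.1 and 83.1 against 75.9, 63.4 and 48.4 CPM, with overlap (log2 difference 0.33 ± 0.18, edgeR adjusted p = 0.165). Sim1, required for hypothalamic neuroendocrine neurons, had 11, 37 and 65 counts in diencephalon and 0, 0 and 1 in cortex. The diencephalic libraries differed widely among themselves, at 5.15, 19.5 and 34.0 CPM. The ratio of summed counts was 110 (95% exact counting interval 19.3 to 4376), and the edgeR adjusted p of 0.000539 became 0.0940 without cortical replicate 3 (range over alternatives 1.54e-19 to 0.0940). Its paralogue Sim2 had 2, 6 and 8 counts against none. It was 5.18-fold higher with the same floor, again with the diencephalic counts taken as exact. It passed when no filter was applied (edgeR adjusted p = 0.00362). Sim1 and Sim2 went in the direction of the subcortical neuron markers. Npas1 had 4 and 6 summed counts.

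The DEC repressors, which damp the clock, did not pass. Bhlhe40 was at 130, 137 and 109 CPM in diencephalon and 145, 129 and 127 CPM in cortex, overlapping (log2 difference -0.10 ± 0.14, edgeR adjusted p = 0.633; on TPM scales the sign turned to 0.10). Bhlhe41 was at 75.8, 70.1 and 58.0 against 78.1, 79.3 and 81.4 CPM. These did not overlap, but the adjusted p was 0.301 (log2 difference -0.22 ± 0.16). Of 12 tested clock partners, 1 was higher and 3 were lower (33.3% called, against 29.6% of all genes). The number lower dropped to 1 without diencephalon replicate 2 or 3 or cortical replicate 1, and on TPM scales. Rora, a nuclear receptor of the clock and of thalamic neurons, was at 773 ± 23.0 against 340 ± 28.0 CPM (adjusted p = 1.87e-07), and Rorb, also a cortical layer marker, at 314 ± 20.6 against 516 ± 51.2 CPM (0.000132). Hlf and Dbp, both PAR-type clock output factors, were lower at smaller margins (adjusted p = 0.0326 and 0.0429). Dbp passed in 3 of 15 alternatives and lost its call when any of the 6 libraries was left out.

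In the MYC, MAX and MXD network 6 of 7 genes were tested, and the 2 that passed were MXD-type repressors (33.3% called, against 29.6% of all genes). Max, the obligate partner, had the highest mean TPM of all 65 genes, and its CPM was even across regions, at 224, 200 and 219 against 212, 208 and 239 CPM (log2 difference -0.03 ± 0.12, edgeR adjusted p = 0.879; the sign turned in 5 alternatives). Mxd1 was at 86.1, 91.8 and 103 CPM in diencephalon and 129, 138 and 139 CPM in cortex. Its libraries did not overlap, and it fell 1.44-fold (log2 difference -0.53 ± 0.13, adjusted p = 0.00463).

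Mxi1 was at 70.6, 69.6 and 74.7 against 104, 112 and 88.2 CPM, also without overlap. It fell 1.42-fold (log2 difference -0.50 ± 0.15, edgeR adjusted p = 0.0124), and the call was lost without cortical replicate 2 (0.0697). On log2(TPM + 1), neither passed (limma adjusted p = 0.119 for Mxd1 and 0.195 for Mxi1); over all alternatives their adjusted p ran from 0.00287 to 0.119 and from 0.00212 to 0.195. Mxd4 averaged 13.6 ± 3.79 against 13.3 ± 4.67 CPM, Myc 21.5 ± 2.54 against 19.3 ± 5.39 CPM, and Mycn 20.5 ± 3.15 against 16.4 ± 3.68 CPM. None of these 3 passed (adjusted p = 0.975, 0.67 and 0.40), and Mxd3 had no count. Mxd1, Mxd4 and Mxi1 together made up 71.7% to 74.5% of the summed TPM of these and Myc and Mycn in diencephalon, below the 78.1% to 82.8% in cortex. Of 16 tested MYC target genes 12.5% were called, against 29.6% of all genes. None was higher and 2 were lower, namely Npm1 and Ncl, nucleolar proteins of ribosome assembly, at 134 ± 19.5 against 222 ± 12 and 189 ± 7.37 against 255 ± 17.7 CPM (adjusted p = 0.000227 and 0.00966). Ncl did not pass on TPM scales (limma adjusted p = 0.230 and 0.223).

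Of the leucine-zipper factors, Mitf, the regulator of pigment and myeloid cells, was at 25.7, 29.0 and 36.6 CPM in diencephalon and 20.5, 18.6 and 15.5 CPM in cortex. The regions did not overlap, though the nearest libraries were close. The rise was 1.65-fold (log2 difference 0.72 ± 0.23, edgeR adjusted p = 0.0234). It was lost with DESeq2 (0.0979) and without diencephalon replicate 2 (0.05, just above the threshold), diencephalon replicate 3 (0.136), cortical replicate 2 (0.0598) or cortical replicate 3 (0.0573), over a range of 0.0194 to 0.136. Microglial markers, which come from myeloid cells, summed to 299 to 535 CPM in diencephalon and 429 to 1016 CPM in cortex, higher in cortex on average with overlapping libraries.

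Usf2, a ubiquitous E-box factor, was at 14.0, 25.8 and 16.2 against 32.7, 25.6 and 23.6 CPM, with diencephalic replicate 2 inside the cortical range. It did not pass (log2 difference -0.56 ± 0.26, edgeR adjusted p = 0.108), except without diencephalon replicate 2 (0.0321). Tfe3, a lysosomal and nutrient-response factor, was at 23.4, 24.3 and 25.6 against 19.2, 34.1 and 31.7 CPM, overlapping (adjusted p = 0.577). Tfeb had 25 and 22 summed counts and Usf1 16 and 20. Of 26 tested lysosomal targets of TFEB and TFE3, 11.5% were called, against 29.6% of all genes: 1 was higher (Gaa, acid alpha-glucosidase, 147 ± 9.84 against 84.6 ± 19.9 CPM, adjusted p = 0.000492) and 2 were lower (the proteases Ctsd and Tpp1, adjusted p = 0.0377 and 0.0453). The number higher was 2 without cortical replicate 3 and 3 on TPM scales. The number lower was 0 without diencephalon replicate 1 or 3 or cortical replicate 2 and on TPM scales, and 4 without cortical replicate 3.

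The 10 mesodermal, vascular and blood factors all stayed under the filter. Tal1, of blood and endothelial cells, had 4, 5 and 5 counts in diencephalon and 3, 2 and 8 in cortex. Msc had 0, 0 and 5 against 3, 1 and 1 counts, and Twist2 1, 0 and 2 against 2, 1 and 1. Bhlha9 had 2 and 1 summed counts, Tal2 1 and 0, Tcf15 0 and 1, Tcf21 1 and 0, and Twist1 0 and 1. Hand1 and Hand2 had none. Bhlhb9, matched by symbol only, was at 22.0, 13.7 and 15.7 against 23.6, 22.4 and 22.4 CPM and did not pass (edgeR adjusted p = 0.246). In all, 33 of the 65 genes were under the filter, 12 of them without any count and 21 with 1 to 57 counts over all libraries.

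Among ID proteins, which oppose E proteins, 2 of 3 tested were lower in diencephalon (66.7% called, against 29.6% of all genes). Id4 was at 14.3 ± 0.304 against 30.3 ± 5.99 CPM (edgeR adjusted p = 0.00156) and Id3 at 15.1 ± 7.57 against 31.1 ± 13.1 CPM (0.0404), with overlap. The number lower dropped to 1 without diencephalon replicate 2 or 3 or cortical replicate 1 or 2. Id2 did not pass (0.0803), and Id1, under the filter, had 1 and 16 summed counts. Of 4 tested HES corepressors, Tle1 was lower, at 30.7 ± 6.68 against 54.1 ± 9.98 CPM (0.00449), or 25% called against 29.6% of all genes. None of the 4 passed on TPM scales, and 2 were lower without cortical replicate 3. Of 19 other tested bHLH and bHLH-PAS genes, 4 were higher and 5 lower (47.4% called, against 29.6% of all genes), and the number higher dropped to 2 without diencephalon replicate 3 or cortical replicate 1. The smallest adjusted p belonged to Neurod6 and Neurod2, factors of cortical excitatory neurons, at 1.03 ± 0.92 against 33.7 ± 7.33 CPM (1.07e-08) and 3.99 ± 1.66 against 39.9 ± 9.16 CPM (7.33e-08). Both are nearly absent from diencephalon and passed the filter through cortex, so a difference was built into their passing. Heyl followed, and then Bmyc, a MYC relative without the DNA-binding domain, at 35.2 ± 6.19 against 89.4 ± 29.0 CPM (9.53e-05). Only up to 4 genes per related list were followed singly through the alternatives. Among these, the calls of Id3, Egln1, P4ha2, Ctsd, Tpp1, Hlf and Dbp were each lost without at least 1 library. Other called genes of these lists, Clock and Ndrg1 among them, were not followed and can have lost their calls too.

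Ordered by mean TPM, Max, Epas1 and Tcf4 led the 65 genes, followed by Arnt2, Bhlhe40, Olig1 and Hey1. Max stood at 433 ± 22.9 TPM in diencephalon and 385 ± 33.7 TPM in cortex, and Epas1 at 348 ± 49.3 and 362 ± 41.7 TPM. These neighbours overlapped in their spread in cortex. Tcf4 ranked first in cortex at 464 ± 41.2 TPM and behind Max and Epas1 in diencephalon at 201 ± 9.68 TPM. In diencephalon Arnt2 (165 ± 8.79 TPM), Olig1 (161 ± 3.99 TPM) and Bhlhe40 (155 ± 17.2 TPM) overlapped. In cortex Arnt2 (176 ± 13.4 TPM) lay above Bhlhe40 (144 ± 12.6 TPM) in all libraries.

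**Figure D5:**
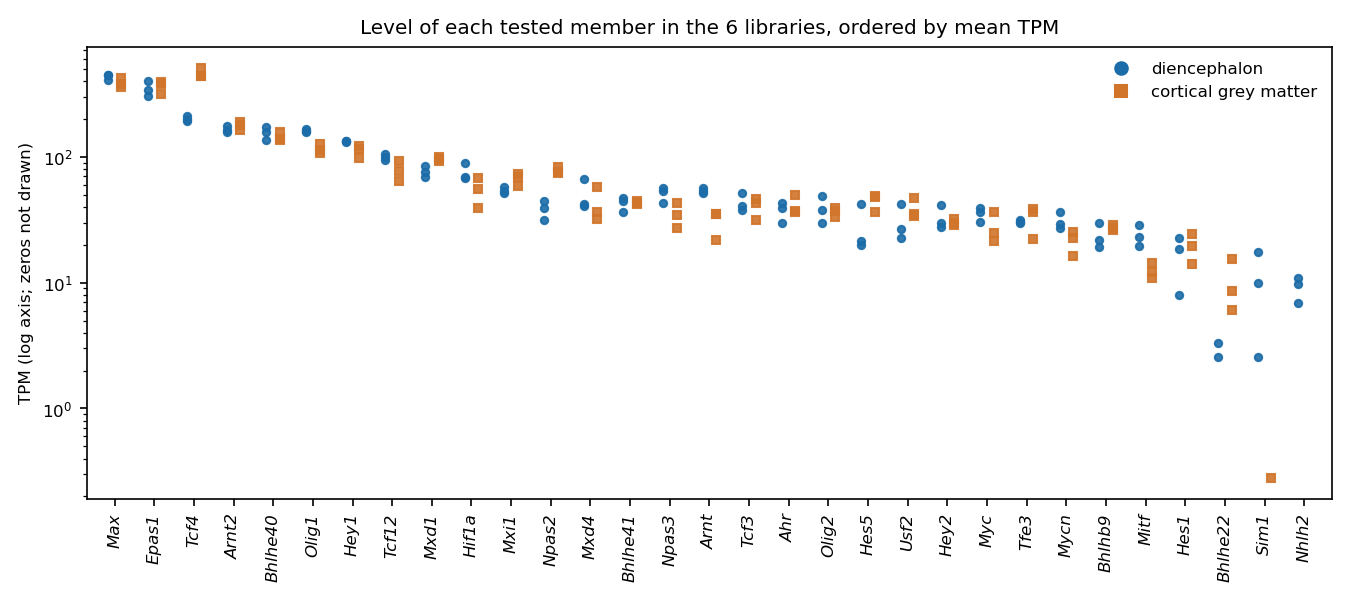
TPM (log axis) of 31 of the 32 tested genes in the 3 diencephalic (circles) and 3 cortical (squares) libraries, ordered by the mean over all 6; values of 0 are not drawn. The highest single value is 512 TPM, for Tcf4 in cortical replicate 3, and the lowest drawn is 0.28 TPM, for Sim1 in the same library, and the regions are set well apart for Tcf4.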

How the data were processed

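Ribosome-bound RNA was measured in 6 libraries, 3 per region. Per the labels' protocols, tagged ribosomes were purified, cDNA was amplified (Ovation system), and libraries were sequenced on an Ion Proton. RSEM and build mm9 are named in the submitters' processing notes; the aligner, annotation, strand use and versions were not given in the sources used here, so overlapping or antisense genes cannot be told apart. The values deposited by the authors are expected counts, TPM and FPKM per gene (FPKM not used), beside gene lengths in other columns.

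Expected counts were rounded, a shift of under 7 counts per library. Rn45s was kept in the library totals. Counts were fitted with edgeR 4.0.16 (R 4.3.3): filterByExpr at a minimum count of 10, TMM scaling, robust quasi-likelihood F test, Benjamini-Hochberg adjustment over 10568 genes. The common biological coefficient of variation was 13.6%. SDs are over 3 libraries, and floors use 3 counts. Alternatives were a minimum count of 30, no filter, RLE factors, limma 3.58.1 (voom, log2(TPM + 1), log2(TPM + 0.1)), DESeq2 1.42.0, a replicate block, removal of a gene length trend, and leaving out each library. The code was tested on simulated counts for this comparison (10350 genes): 21.7%, 68.6% and 100% of genes changed 1.5-fold, 2-fold and 4-fold were recovered.

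The genes and all lists were chosen with earlier results of these data known. A member of the rule that is counted among those tested and called is not reported here. The genes named are every other member, with values by library for those past the test and the 3 of highest mean TPM in each role group, and up to 4 genes per related list with the smallest adjusted p; Clock, and others said to be, were named after their values were seen. Upstream windows and E-box shares came from RefSeq (GRCm38.p6). Mm9 coordinates were not used.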

Additional observations from a re-analysis of the deposited data

How the results depend on the processing

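Of the 65 genes, 10 were called, and between 7 and 13 under the alternatives; the 13, without a filter, include Bhlha15 and Sim2, which are not among the 32 tested with it. Over the alternatives, values of the 10 kept their direction in every case; 132 values also kept their side of the threshold and 15 did not. Higher genes fell from 4 to 2 at a minimum count of 30, where Nhlh2, Sim1 and Bhlhe22 were not tested, and ran from 2 to 4 when libraries were left out. Lower genes fell from 6 to 3 on log2(TPM + 0.1); the cause was not tested. With a replicate block 10 were called, all 10 of those called without it, and over all genes 1506 were higher and 1531 lower (1574 and 1559 without it). Libraries sharing a number did not deviate together (Pearson r 0.06, -0.10 and 0.004 across genes), so the numbers were not taken as pairs. Over all genes, the count was also smaller with DESeq2 (1177 higher and 1289 lower) and on log2(TPM + 1) split into 2118 higher and 958 lower of 14296.

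Of the 22 genes not called, 7 changed sign in at least 1 alternative, 20 values in all, none past the threshold. On log2(TPM + 1) and log2(TPM + 0.1) the log2 differences were 0.104 and 0.105 for Bhlhe40, 0.109 and 0.112 for Hey2, 0.173 for Max in both, 0.0600 and 0.0608 for Olig2, and 0.113 and 0.116 for Tcf3. With the length trend removed Max was at 0.116. When single libraries were left out, the lowest and highest values were -0.0510 and 0.112 for Hey1, -0.267 and 0.0233 for Hey2, -0.0749 and 0.0267 for Max, -0.233 and 0.327 for Mxd4, -0.305 and 0.0467 for Olig2, and -0.264 and 0.0372 for Tcf3. In the simulation at this depth, 21.7% of genes changed 1.5-fold were recovered. There 10152 of 10350 genes were unchanged, while 29.6% of all genes tested in the data were called. The adjusted cutoff was therefore stricter in the simulation, and its recovery is not the power in these data. Small changes can still have been missed.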

Other observations

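Mycl, a MYC family gene that the files list under a newer symbol than the rule holds, had 12, 12 and 11 counts in diencephalon and 10, 8 and 14 in cortical grey matter. The libraries overlapped, and the log2 difference was 0.07 ± 0.43 (edgeR adjusted p = 0.927). Summed over the 65 genes, TPM averaged 2599 in diencephalon and 2763 in cortical grey matter, of which Max alone gave 15.7% to 17.2% and 13.0% to 15.4%.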
